A study of Mus musculus with 8 samples.

Results

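The solute carrier (Slc) genes that carried an m6A peak in bone marrow-derived macrophages (BMDMs) were examined in 4 peak lists, 1 per mouse. A gene was a member when its symbol begins with Slc and a digit and at least 1 peak of any list was assigned to it, so the members were chosen by having a peak. This gave 138 of the 371 Slc genes in the annotation, among 7055 protein-coding genes with a peak of 21951 annotated. The other 233 Slc genes had no peak in any list.

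Solute carriers are membrane proteins that move sugars, amino acids, metal ions, nucleotides and other small molecules across the plasma membrane and the membranes of organelles, by facilitated diffusion or by coupling to an ion gradient. In macrophages they are known for taking up glucose and amino acids upon activation, for releasing the iron recovered from engulfed red cells and for carrying bacterial peptides out of lysosomes. N6-methyladenosine (m6A) is a methyl mark that the METTL3 enzyme, with its partner METTL14, adds to adenosines of mRNA, most often within the motif GGAC or its variants, in long internal exons, near the stop codon and in the 3′-UTR.

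The mice were C57BL/6, 8 weeks old, and all 4 carried the floxed alleles Mettl3 fl/fl. The 2 wild-type (WT) mice were Lyz2+/+ littermates without Cre and the 2 knockout (KO) mice were Lyz2 cre/+, so that Cre, which cuts out the floxed part of Mettl3, was driven by the Lyz2 locus of myeloid cells. Marrow was grown for 7 days with 40 ng/mL M-CSF. RNA of each mouse gave an m6A immunoprecipitation (IP) and an input library in methylated RNA immunoprecipitation sequencing (MeRIP-Seq), and the comparison asks which carrier transcripts lost or kept m6A enrichment when METTL3 was deleted. A list gives the position of each enriched region and a score. What the score measures is not given in the sources used here, and it was taken to grow with the evidence for enrichment. A list does not give reads, so the depth is unknown and methylation levels were not compared.

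The lists held between 6159 (WT-1) and 6684 (KO-2) peaks, of which 97.0% to 97.3% fell on an exon of a protein-coding gene. Mettl3 itself had no peak in any list, so the lists offer no check of the genotype labels. Of 10 macrophage markers, 4 had a peak and 2 of these, Mertk among them, had one in all 4 lists, while the defining markers Adgre1, Csf1r and Cd68 had none. Of the markers of other cells, no B cell (3) or neutrophil (4) marker had a peak, Cd4 among 4 T cell markers had one in both WT lists, and Pdgfra and Col1a1 among 5 fibroblast or epithelial markers had one in 3 lists and 1 list. A peak needs a methylated transcript as well as an expressed one, so these counts do not measure the cells present. In bulk cultures, fewer cells with a methylated transcript and less methylated RNA per cell cannot be told apart.

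Some sequences under the peaks are printed here with the motif marked. The first set holds stretches of coding sequence (CDS), each 120 bases of the stretch that all the lists named for that gene had in common. Slc15a3, Slc38a10, Slc3a2 and Slc8a1 had the stretch in all 4 lists, and Slc40a1 in both KO lists only. Each stretch was placed where GGAC was most frequent, so its motif count is a consequence of that choice. Sequences are RefSeq GRCm38, 5′ to 3′ on the strand of the gene, and capitals mark GGAC.
Slc15a3, chr19:10843110-10843229, plus strand: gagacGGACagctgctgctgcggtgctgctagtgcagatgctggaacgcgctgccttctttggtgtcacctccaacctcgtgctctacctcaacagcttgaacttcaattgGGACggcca
Slc38a10, chr11:120110114-120110233, minus strand: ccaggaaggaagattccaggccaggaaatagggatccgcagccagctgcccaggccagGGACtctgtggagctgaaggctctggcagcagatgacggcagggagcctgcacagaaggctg
Slc3a2, chr19:8713608-8713727, minus strand: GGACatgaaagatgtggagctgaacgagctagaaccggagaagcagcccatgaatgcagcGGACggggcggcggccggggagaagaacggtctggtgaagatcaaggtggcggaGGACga
Slc8a1, chr17:81648197-81648316, minus strand: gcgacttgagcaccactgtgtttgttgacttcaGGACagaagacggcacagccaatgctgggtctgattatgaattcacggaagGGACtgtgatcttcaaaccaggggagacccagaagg
Slc40a1, chr1:45911085-45911204, minus strand: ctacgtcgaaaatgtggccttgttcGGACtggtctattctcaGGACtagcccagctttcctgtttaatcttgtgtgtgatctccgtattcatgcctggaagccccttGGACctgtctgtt

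The second set holds sites of 30 bases in the 3′-UTR, again around GGAC in the stretch shared by the lists. Slc2a1, Slc39a14 and Slc44a2 had the peak in all 4 lists. The next 6, from Slc13a3 to Slc27a1, had it in both WT lists and neither KO list, and Slc25a13 in both KO lists and neither WT list.
Slc2a1, chr4:119136828-119136857, plus strand: agggctGGACctatggccaaGGACacacta
Slc39a14, chr14:70306580-70306609, minus strand: gtccccggcccgaGGACtcagcatccacga
Slc44a2, chr9:21354187-21354216, plus strand: agctccccagcggGGACagaattggatctc
Slc13a3, chr2:165405387-165405416, minus strand: ccctcgggGGACaaGGACGGACatgcacag
Slc22a4, chr11:53983349-53983378, minus strand: tgagcaccaaactGGACttgtggagaaatg
Slc30a5, chr13:100803010-100803039, minus strand: catcttcaggaatGGACgcataatgatgga
Slc30a7, chr3:115946532-115946561, minus strand: tcagaagcaccaaGGACgcaggtagagtca
Slc35c2, chr2:165276837-165276866, minus strand: gtctctcagattcGGACtgtggggtatcag
Slc27a1, chr8:71586069-71586098, plus strand: gtgggctgggcctGGACtcctgagacctgg
Slc25a13, chr6:6041684-6041713, minus strand: aaatatctagcctGGACtcaaattttaaac

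GGAC, read on the strand of the gene only, was present in 26 of the 29 stretches (89.7%) that all 4 lists shared on Slc genes, with a median of 3 and at most 10 copies, in Slc2a1. The 3 stretches without it were those of Slc7a8, Slc45a4 and Slc16a6, the last only 30 bases long. The absence of these letters from a stretch says nothing about other forms of the motif. How often GGAC occurs in stretches of the same length outside peaks was not tested. Over all peaks of Slc genes the motif was present in 87.8% ± 2.54 (SD over 4 lists), against 87.6% ± 0.774 of the peaks of other genes, and the difference of 0.18 percentage points was not beyond the spread (P = 1, two-sided exact sign-flip permutation test over the 4 lists). In the central 200 bases of a peak, the motif was present in 66.3% (WT-1) and 68.3% (WT-2) of Slc peaks from WT mice, and in 56.8% (KO-1) and 55.8% (KO-2) of those from KO mice. Both KO lists were thus below both WT lists, by 11 percentage points between the means (P = 0.33, two-sided exact permutation test, n = 2 per genotype). Peaks of other genes had it in 61.1% to 63.9% of each list. This comparison was made after the values were seen.

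The number of Slc genes with a peak was 83 in both WT-1 and WT-2, and 60 (KO-1) and 75 (KO-2) in the KO lists. Every WT list thus named more carriers than either KO list, although the KO lists were the longer ones in total peaks. The means were 83 ± 0 and 67.5 ± 10.6 (SD, n = 2), a difference of -15.5 genes (P = 0.33, two-sided exact permutation test), and 0.33 is the smallest value that 2 mice against 2 can give. The difference was -8 without KO-1 and -23 without KO-2. Slc genes made up 1.97% and 1.9% of all genes with a peak in the WT lists, and 1.42% and 1.67% in the KO lists. Peaks on Slc genes numbered 104 and 101 in WT, against 88 and 95 in KO (difference -11, P = 0.33, exact permutation test). The 6 comparisons of this kind, of which all gave the same smallest P, could not pass a threshold of 0.05. The same-numbered mice are not said to be paired.

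Most carriers were seen in few lists. A peak in 1 list only was the case for 59 members (42.8%), above the background of 32.2% of all genes with a peak, while 31 (22.5%) were present in all 4, below the background of 30.4%. Of the remainder, 26 had a peak in 2 lists and 22 in 3. Merging overlapping peaks gave 215 regions on Slc genes, of which 128 (59.5%) came from 1 list (background 49.4%) and 29 (13.5%) from all 4 (background 17.8%). The weakest member was Slc15a4, a lysosomal carrier of histidine and peptides, with a single peak in WT-2 at a score of 53.94. No list holds a score below 50.05, so carriers just under that limit are counted among those without a peak.

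**Figure D1:**
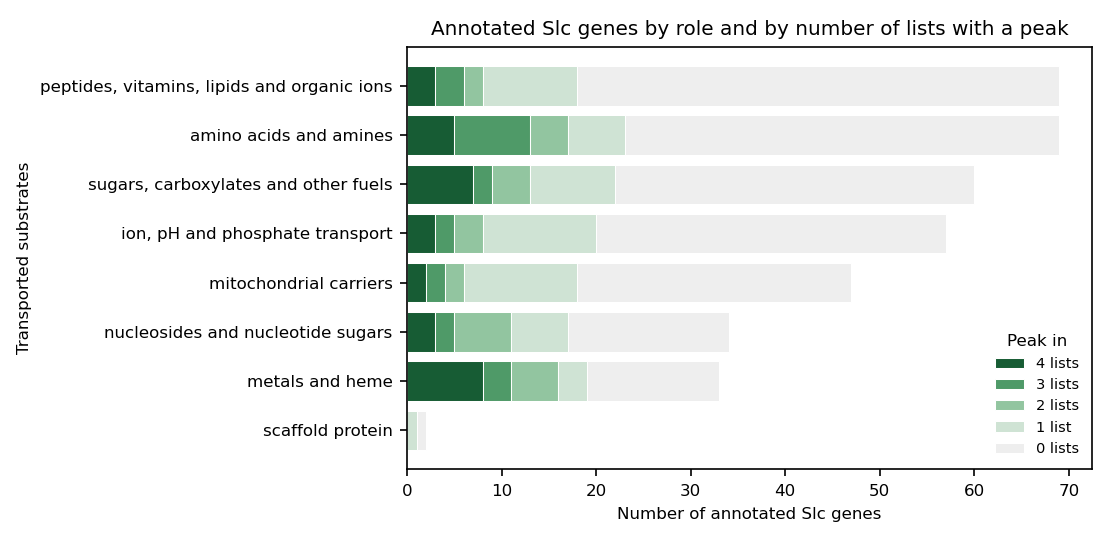
Annotated Slc genes by the kind of substrate they carry (bars, number of genes on the x axis), shaded by the number of lists with a peak. Carriers of metals and heme had the largest share with a peak, 19 of 33, and the most genes in all 4 lists, 8.

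Metals and heme formed the group with the highest share of members, 19 of 33 annotated genes (57.6%), followed by nucleosides and nucleotide sugars with 17 of 34 (50%). Peptides, vitamins, lipids and organic ions had the lowest, 18 of 69 (26.1%). Between them stood mitochondrial carriers (18 of 47, 38.3%), sugars, carboxylates and other fuels (22 of 60, 36.7%), ion, pH and phosphate transport (20 of 57, 35.1%) and amino acids and amines (23 of 69, 33.3%). The scaffold protein Slc9a3r1, which binds carriers without being one, had a peak in KO-1. Slc4a1ap and Slc7a6os are no carriers either, but by their symbols they are counted with ion transport and with amino acids. In amino acid carriers, 18 and 17 genes had a peak in the WT lists and 12 and 11 in the KO lists. For metals and heme the numbers were 15 and 17 against 11 and 11. In the other groups of carriers the genotypes overlapped or touched, as for sugars and fuels (18 and 12 against 9 and 12) and nucleotide sugars (6 and 12 against 8 and 10). With 2 mice each, no group can be shown to differ from another.

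**Figure D2:**
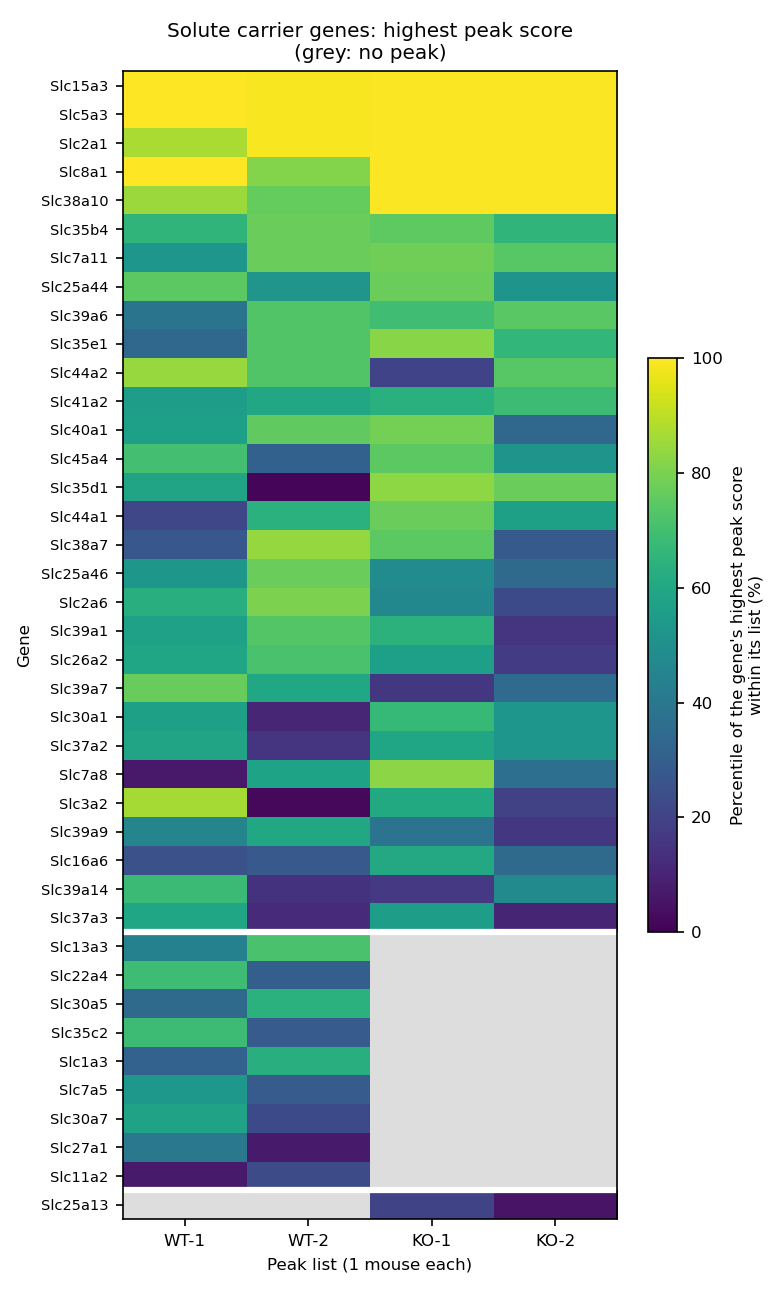
Percentile of the highest peak score of each gene within its list (colour), for named genes with a peak in all 4 lists, in both WT lists only and in both KO lists only (blocks from top to bottom, white lines between), in the 4 lists (columns). Scores tied at 3100 take the highest rank of the tie, as do those of Slc15a3 and Slc5a3 in every list, and the genes shown for 1 genotype have no value above 71.2.

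The order of the genotypes was read from the percentile of a gene's highest score within its list. Among the 31 carriers present in all 4 lists, 5 (16.1%) stood higher in both KO lists than in both WT lists (Slc38a10, Slc2a1, Slc41a2, Slc35d1 and Slc16a6), where the background over the 2147 genes present in all 4 was 23%. Another 5 (16.1%) stood lower in both KO lists (Slc2a6, Slc25a46, Slc26a2, Slc39a7 and Slc39a9), where the background was 10.8%. The highest score of a gene can come from different places on the mRNA in different lists. For Slc39a9 it lay in the 5′-UTR in WT-1 and in the 3′-UTR in the other lists. In the 3′-UTR region that all 4 lists shared, the Slc39a9 percentiles were 2.50 and 59.9 in WT against 38.2 and 16.3 in KO. The genotypes thus overlapped in that region. Slc38a10 and Slc2a1 hold this place only because scores tied at 3100 take the highest rank of the tie. When tied scores could not make the order, an alternative added after the data were seen, 3 of the 31 (9.68%) stood higher in both KO lists (background 14.4%) and the same 5 lower (background 10.5%). With tied scores at their highest rank, the other 21 overlapped between genotypes. Slc15a3 and Slc5a3 had 3100 in every list, so ties alone set their place and no order was read. At the lowest rank of the tie they would stand at 89.7 and 86.5 in WT and 83.8 and 80.5 in KO.

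Carriers of amino acids with a peak in all 4 lists were Slc38a10, Slc7a11, Slc38a7, Slc7a8 and Slc3a2. Slc38a10, of the sodium-coupled neutral amino acid family, had its highest score in WT at 2117.17 (WT-1) and 1865.16 (WT-2) and in KO at 3100 in both lists. This peak was the whole of exon 13, 471 bases of CDS at chr11:120110066-120110536, with the same bounds in each list. The score of 3100 is shared by many peaks, at ranks from 83.8 to 99.4 in KO-1 and from 80.5 to 99.3 in KO-2. KO-2 can thus not be placed above WT-1, at 85.0, and no order of the genotypes was read from this peak. A second region, over the stop codon at chr11:120104281-120106036, had no peak in WT-2. It scored 67.09 in WT-1, 1385.93 in KO-1 and 1108.99 in KO-2, at percentiles of 1.77, 69.8 and 59.0. Slc7a11, the cystine and glutamate exchanger that feeds glutathione synthesis, had a peak in the 3′-UTR that overlapped between all 4 lists, with scores of 549.63 and 1926.40 in WT and 2179.53 and 1021.60 in KO, which overlapped between genotypes. KO-2 had a further peak, scored 2160.57, on a retained intron. Slc3a2, the heavy chain that Slc7a11 and Slc7a5 need to reach the cell surface, had a high and a low score in each genotype, with 2363.33 and 72.95 in WT and 904.67 and 234.55 in KO. Slc38a7, which exports glutamine from lysosomes, also overlapped between genotypes (245.44 and 2711.83 against 1759.39 and 350.91). Scores can depend on the depth of a list, so an order between genotypes was read only from percentiles, and no test was run on a single gene.

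Carriers of metals were the fullest group. Slc40a1, ferroportin, the only known exporter of iron from cells, had 2 peaks and 1 peak in the WT lists, and 3 and 2 in the KO lists. A peak over its stop codon was common to the 4 lists, with a shared stretch of 380 bases. A further peak in the CDS of exon 7, at chr1:45910892-45911530, was in both KO lists (scores 2268.90 and 344.03) and in neither WT list. The zinc importers of the Slc39a family gave 5 of the 8 genes with a peak in all 4 lists, Slc39a6, Slc39a1, Slc39a7, Slc39a9 and Slc39a14, the last of which also takes up iron. Slc39a6 had 356.97 and 1619.05 in WT and 1352.77 and 2191.69 in KO. Slc39a1 had scores of 635.08 and 1654.96 in WT and 1059.01 and 188.26 in KO, and its genotypes overlapped. Slc30a1, which pumps zinc out of the cell, had 631.52 and 157.06 in WT and 1204.85 and 859.24 in KO, but as percentiles (56.9 and 10.9 against 67.2 and 52.5) the genotypes overlapped. Slc41a2, a magnesium carrier, had 617.34 and 958.77 in WT and 1032.27 and 1670.38 in KO, with both KO values higher also as percentiles (63.5 and 68.6 against 56.2 and 59.5).

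Of the sugar and fuel carriers, Slc5a3 and Slc2a1 stood highest. The percentile of their highest score was 99.4 and 96.3 as a mean over the 4 lists, with ties at their highest rank. By the same measure Slc15a3 stood at 99.4 and Slc8a1, of the ion group, at 94.9. Slc5a3, which brings in myo-inositol with sodium, had a score of 3100 in each list, in a peak that covers the end of its CDS and its stop codon. Its peaks numbered 3 and 4 in the WT lists and 1 and 2 in the KO lists. The additional WT peaks in its 3′-UTR, which is 8260 bases long, did not overlap each other. Slc2a1, the main glucose transporter of the plasma membrane, had 1 peak per list over the stop codon and into the 3′-UTR, at chr4:119136246-119137330, with scores of 2547.05 in WT-1 and 3100 in the other lists. Slc2a6, a hexose carrier of lysosomes, had 771.70 and 2259.68 in WT and 523.38 and 266.53 in KO, with both KO values lower than both WT values, also as percentiles (46.5 and 22.5 against 63.3 and 80.4). Slc45a4 (993.88 and 377.61 against 1768.82 and 838.34) overlapped between genotypes. Slc37a2, of the sugar phosphate exchangers, Slc16a6, a monocarboxylate carrier, and Slc37a3 also belong to the genes seen in every list, but for Slc37a2 there was no region that the 4 lists shared. The peaks of Slc16a6 had only 30 bases in common, because WT-2 had its peak further into the 3′-UTR than the others.

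Slc15a3 carries histidine and di- and tripeptides, among them bacterial muramyl dipeptide, across the membrane of endosomes and lysosomes. It had 1 peak with a score of 3100 in each of the 4 lists, at chr19:10842544-10843578, the whole of exon 1, of which 477 bases are 5′-UTR and 558 are CDS. In WT-1 the peak ended at 10843401. Slc44a2 and Slc44a1, the other 2 genes of the peptide, vitamin and lipid group in all 4 lists, belong to the choline transporter-like family. Slc44a2 had 2086.33 and 1616.48 in WT and 203.94 and 2165.79 in KO, so that KO-1 alone was low. Slc44a1 had 199.39 and 1108.72 in WT and 2038.76 and 1016.30 in KO.

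**Figure D3:**
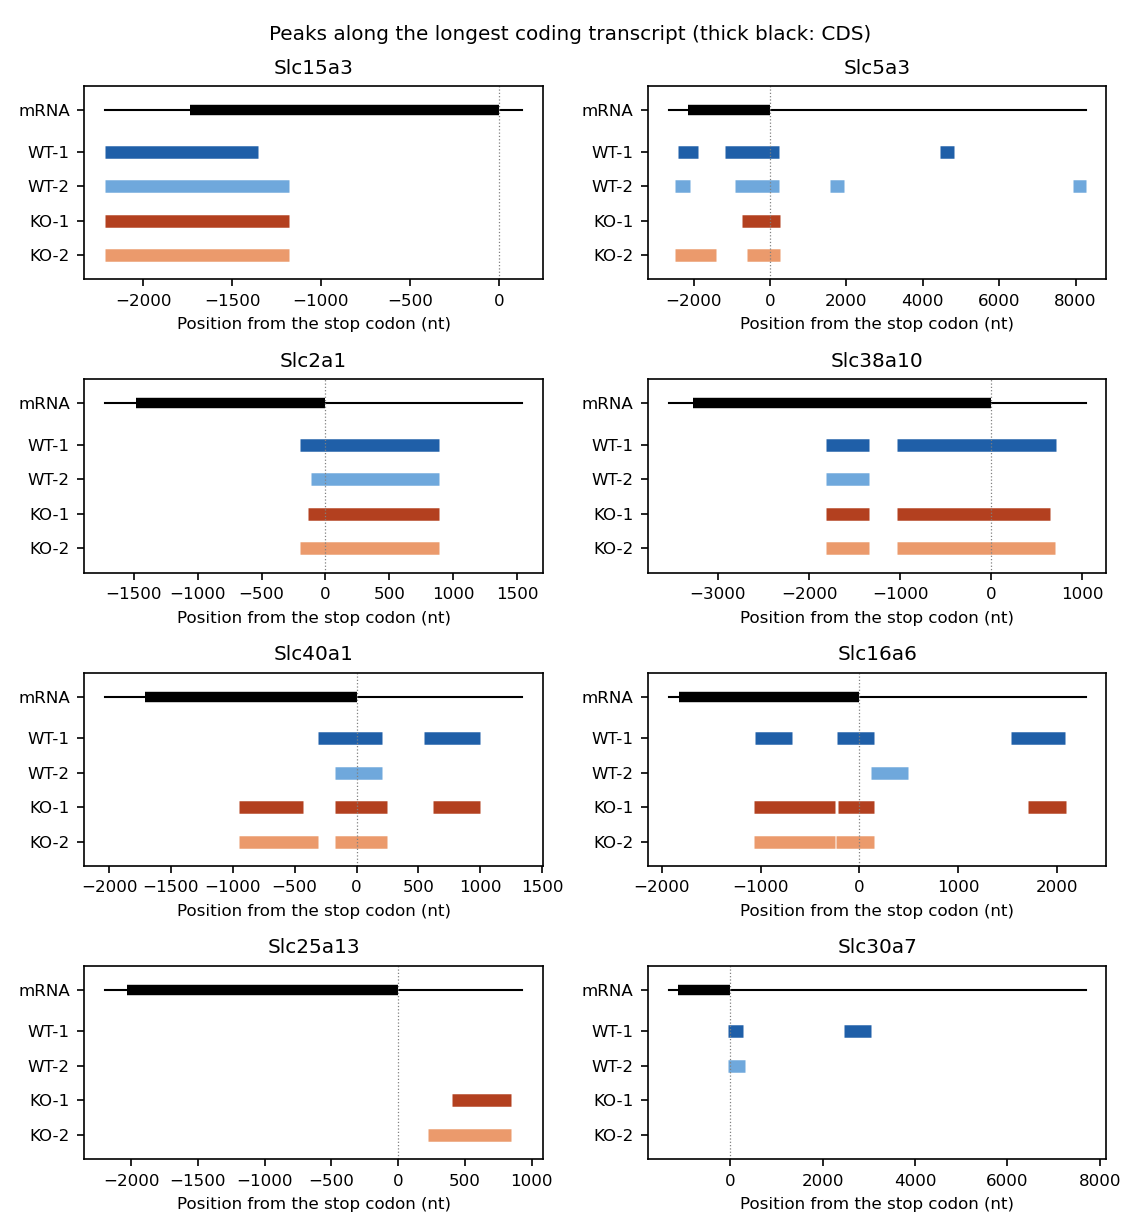
Peaks of 8 Slc genes along the longest coding transcript (x axis, nucleotides from the last base of the stop codon; black line, mRNA with the CDS thick), in 1 row per list (blue, WT; red, KO). Slc15a3, Slc5a3, Slc2a1 and Slc38a10 had a peak at 1 place in each list, the Slc40a1 peak in the CDS was in both KO lists alone, Slc25a13 had peaks in KO lists only and Slc30a7 in WT lists only.

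Slc8a1, the sodium and calcium exchanger of the plasma membrane, had the most peaks of any carrier, 11 in all, with 1 in each WT list, 6 in KO-1 and 3 in KO-2. Its exon 2, the long coding exon, held a peak in each list, with scores of 3100 in WT-1, 2385.56 in WT-2 and 3100 in both KO lists, and 1615 bases common to the 4 lists. Apart from a second peak in exon 2 and a peak over the stop codon in KO-1, the additional KO peaks lay at the 3′ end of the gene, on a 3′-UTR that its longest coding transcript does not use, and 1 of these regions, at chr17:81379705-81380069, was in both KO lists with scores of 394.78 and 55.74. The sulphate carrier Slc26a2 had 9 peaks (1 and 3 in WT, 3 and 2 in KO).

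Among mitochondrial carriers, Slc25a44, which imports branched-chain amino acids, had highest scores of 1234.77 and 740.90 in WT and 2035.94 and 829.27 in KO. That of WT-2 came from a 3′-UTR region and those of the other lists from a 5′-UTR region. In the 5′-UTR region, which all 4 lists shared, WT-2 had 227.01. Slc25a46, a protein of the outer membrane that acts in mitochondrial fission and fusion, had 556.67 and 1928.82 in WT and 555.11 and 450.33 in KO, both below the WT values, also as percentiles. Of the nucleotide sugar group, Slc35b4, which supplies nucleotide sugars to the Golgi and endoplasmic reticulum, had 834.61 and 1951.58 in WT and 1788.02 and 1464.92 in KO, and Slc35e1 had 300.99 and 1613.62 in WT and 2720.15 and 1500.68 in KO. Slc35d1, which brings UDP-glucuronic acid into the endoplasmic reticulum, had peaks in all 4 lists (662.42 and 64.52 against 2924.14 and 2534.55) but no region common to them. WT-2 had its peak at the stop codon, whereas the highest peak of the other lists lay further into the 3′-UTR.

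A peak in both WT lists and neither KO list was found for 9 Slc genes, 6.52% of the members, where the background over all genes was 3.84%. The reverse, both KO lists and neither WT list, was found for 2, or 1.45%, with a background of 4.88%. These genes were selected on their presence in the lists, so their values are a description. Slc30a5 and Slc30a7, which load zinc into the secretory pathway, had a peak across the end of the CDS into the 3′-UTR, with scores of 314.35 (WT-1) and 1111.90 (WT-2) for Slc30a5 and 308.90 and 269.52 for Slc30a7. Slc22a4, which takes up ergothioneine, had 953.37 and 369.69, also over the stop codon. Slc13a3, a carrier of dicarboxylates such as succinate, had 418.62 and 1516.23, and the Golgi protein Slc35c2 had 934.66 and 345.77, both in the 3′-UTR. Slc27a1, a fatty acid importer, had 373.00 and 119.73.

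For the other 3 genes the 2 WT mice matched less closely. Slc11a2, the importer of ferrous iron, had scores of 102.58 and 279.69 on a 3′-UTR that its longest coding transcript does not use. The peaks of Slc1a3, a glutamate importer, did not overlap (283.27 within the 3′-UTR in WT-1 and 1070.98 over the stop codon in WT-2). Those of Slc7a5, the importer of leucine and other large amino acids that pairs with Slc3a2, did not overlap either, with 564.19 in the 3′-UTR in WT-1 and 347.87 in the CDS of exon 1 in WT-2. None of the 9 genes reached the score of 3100. Leaving out 1 list loosens the rule, and the count of 9 then became 28 without WT-1 and 25 without WT-2, or 14 without KO-1 and 18 without KO-2.

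Of the 2 genes with a peak in KO lists only, Slc25a13, the mitochondrial exchanger of aspartate and glutamate, had 204.87 and 99.52 in its 3′-UTR at chr6:6041302-6041920. These scores were low in their lists, at percentiles of 20.4 and 5.33. With 1 list left out, the count of 2 became 8 (WT-1), 4 (WT-2), 17 (KO-1) or 11 (KO-2).

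Among regions rather than genes, 9 of 215 (4.19%) were in both WT lists only (background 3.32%) and 7 (3.26%) in both KO lists only (background 6.19%). Without 1 list these counts were 42 and 14 (WT-1), 48 and 10 (WT-2), 13 and 38 (KO-1) and 17 and 32 (KO-2). Besides the genes above, the WT regions included the 5′-UTR of the magnesium carrier Slc41a1 (201.22 and 1063.29) and a 3′-UTR region of Slc7a6, an exchanger of basic amino acids (215.25 and 1779.09). The KO regions included, besides those of Slc40a1, Slc8a1 and Slc25a13, 2 regions of the glutamine carrier Slc38a1 and 1 of Slc4a1ap (1412.27 and 1232.97), an adaptor-like protein whose symbol follows the rule although it is no carrier. Slc41a1, Slc7a6, Slc7a6os, Slc7a8, Slc38a1, Slc4a1ap, Slc16a6, Slc37a3, Slc39a7 and Slc39a9 lie outside the rule for named genes and were named after their values were seen. In both genotypes, these regions were few beside the 128 that a single list held.

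The macrophage list holds 34 carriers, put together for their roles in iron, amino acid, sugar and lysosomal transport. It was chosen with earlier results of these data known. A peak was listed for 22 of them and none for 12. Among all Slc genes 138 of 371 had a peak, and among all protein-coding genes 7055 of 21951. No peak was listed for Slc11a1, which removes metals from the phagosome, for the heme carrier Slc48a1, the copper importer Slc31a1, the amino acid carriers Slc1a5, Slc38a2 and Slc6a6, or for Slc29a3, Slc46a1, Slc46a3, Slc4a7, Slc25a1 and Slc25a5. Of the 22, 9 were present in all 4 lists and 7 in a single one, where the shares over all members were 22.5% and 42.8%. Over all genes with a peak the shares were 30.4% and 32.2%. The lactate carriers Slc16a1 and Slc16a3 each had a peak in 1 WT and 1 KO list. Slc7a2, which brings in arginine, had 2 peaks in WT-1 and none in the other lists. Slc43a2, an importer of neutral amino acids, had 2 peaks in WT-1 and in each KO list and none in WT-2. Slc9a9, an endosomal sodium and proton exchanger, had 1 peak in each list but KO-1. The 5 other genes with a peak in a single list besides Slc7a2 and Slc15a4 were Slc12a2 (KO-1), Slc20a1 and Slc25a37 (KO-2), Slc25a51 (WT-1) and Slc35a4 (WT-2).

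The position of the peaks on the mRNA was compared between Slc and other genes. The middle of a peak fell in the CDS for 26.7% of 90 placed peaks in WT-1 (95% Wilson interval 18.6 to 36.6) and 26.6% of 94 in WT-2 (18.7 to 36.3). From the KO mice it was 36.4% of 77 in KO-1 (26.5 to 47.5) and 42.7% of 82 in KO-2 (32.5 to 53.5). Other genes had 49.8%, 47.8%, 55.1% and 52.5% in the same lists. The share on Slc genes was lower in 4 of 4 lists, the difference being -18.2 ± 5.91 percentage points (SD over lists), with P = 0.13 in a two-sided exact sign-flip permutation test, which is the smallest that 4 lists can give, and 0.271 after Benjamini-Hochberg adjustment over 13 such measures. The intervals cover counting error only and treat peaks of a gene as separate.

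The 3′-UTR showed the opposite difference. In the WT lists it held 62.2% and 66.0% of Slc peaks against 46.8% and 49.2% for other genes, and in the KO lists 51.9% and 52.4% against 40.4% and 44.2%, a difference of 13 ± 3.88 points that was positive in 4 of 4 lists (P = 0.13, exact sign-flip permutation test; adjusted 0.271). On genes with a single coding transcript it was 8.12 points (P = 0.375, same exact test), and the difference in the CDS was -15.8 (P = 0.25, same exact test). The 5′-UTR held 4.88% to 11.7% of Slc peaks and 2.94% to 4.43% of others, higher on Slc genes by 5.25 points in 4 of 4 lists (P = 0.13, same exact test). Slc peaks were also more often in the last exon, 73.4% against 65.2%. Within the 3′-UTR, their middle lay at a median of 433, 334, 363 and 392 nucleotides past the stop codon in the 4 lists, against 362, 328, 329 and 358 for other genes (mean difference 36.1, P = 0.13, exact sign-flip permutation test, run apart from the 13 measures). The share of peaks over the stop codon itself was 36.1% and 33.6% (P = 0.375, exact sign-flip test), a difference within the spread between lists.

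**Figure D4:**
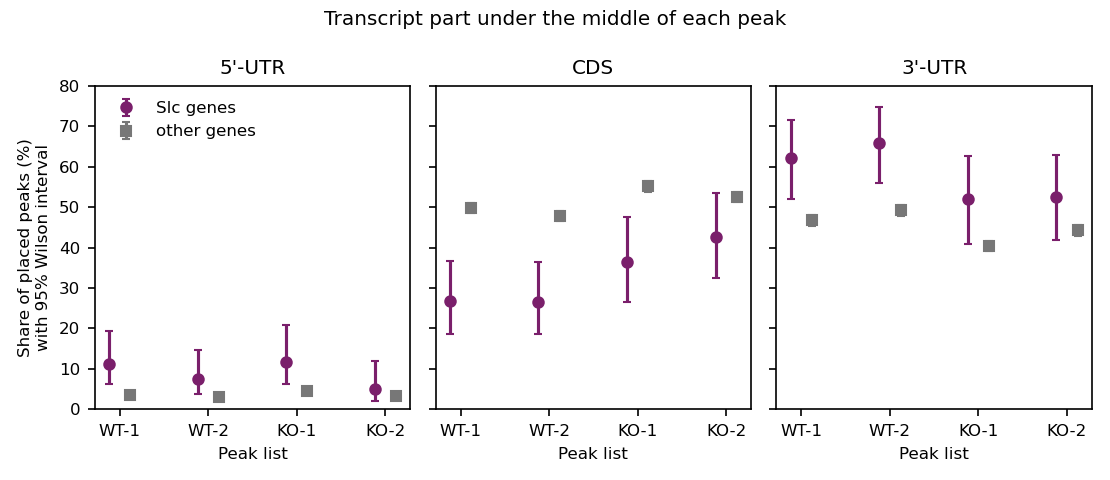
Share of peaks whose middle lay in the 5′-UTR, CDS or 3′-UTR (y axis, percent of placed peaks with 95% Wilson interval), for Slc genes (circles) and other genes (squares) in each list. In every list the Slc share was lower than that of other genes in the CDS and higher in the 3′-UTR, and the Slc CDS share was 26.7% and 26.6% in WT and 36.4% and 42.7% in KO.

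Members with a peak had a median 3′-UTR of 1492 bases, against 1256 for all genes with a peak and 744 for Slc genes without one. Their longest stretch of coding exon was 369.5 bases at the median, against 408 for all genes with a peak. The part of these lengths in the position of the peaks was not tested. The ion, pH and phosphate group had 25 of 40 placed peaks (62.5%) in the CDS. The other groups of carriers had 20.7% (peptides and vitamins) to 32.3%, pooled over the lists and without a test. Without Slc26a2 and Slc8a1, which gave 12 of the 25, the share of the ion group was 13 of 25 (52%). Slc4a1ap, which is no carrier, is counted in both shares of that group, and its placed peaks all lay in the CDS. Of the 388 Slc peaks, 45 on 23 genes could not be placed on the longest coding transcript. On the transcript of the same gene that covers them best, 24 were in a 3′-UTR, 8 in a 5′-UTR, 1 in CDS and 12 on a transcript without CDS.

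Between the genotypes, the CDS share of Slc peaks was 26.6% ± 0.0501 in WT and 39.5% ± 4.47 in KO (SD, n = 2), a difference of 12.9 points with no overlap (P = 0.33, two-sided exact permutation test, the smallest possible). The size depended on the processing, at 4.57 points when every base of a peak was placed and 24.6 in the top 50% of scores. The 3′-UTR share was 64.1% ± 2.64 and 52.2% ± 0.347, a difference of -11.9 points (P = 0.33, exact permutation test). Other genes moved in the same direction by less, from 48.8% ± 1.39 to 53.8% ± 1.89 in the CDS. The gap between Slc and other genes was -22.2 points in WT and -14.3 in KO, and this difference between genotypes of 7.91 points also had P = 0.33 (exact permutation test).

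Scores on Slc genes were below the middle of their lists. The median percentile was 44.1 and 40.5 in the WT lists and 41.8 and 35.6 in the KO lists, where other genes stood at about 50.1 (mean difference -9.60 ± 3.71, lower in 4 of 4 lists, P = 0.13, exact sign-flip permutation test; adjusted 0.271). Scores of 3100 or more were reached by 2.88% and 3.96% of Slc peaks in the WT lists and 6.82% and 8.42% in the KO lists. Among peaks of other genes the shares were 10.3% and 13.6% in WT and 16.4% and 19.7% in KO, so these too were higher in the KO lists. The difference from other genes was -9.48 points on average, and negative in 4 of 4 lists. The median width of peaks on Slc genes differed from that of other genes by less than the spread between lists (521 and 508 bp, P = 0.625, exact sign-flip test), and there were 1.30 per gene against 1.43 (P = 0.25, same exact test). The peaks of each list were also parted at their median score, in a check added after the data were seen. Above and below the median of each of the 4 lists, the CDS share was lower on Slc genes (differences from -31.7 to -5.49 points) and the 3′-UTR share was higher (differences from 1.27 to 28 points).

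**Figure D5:**
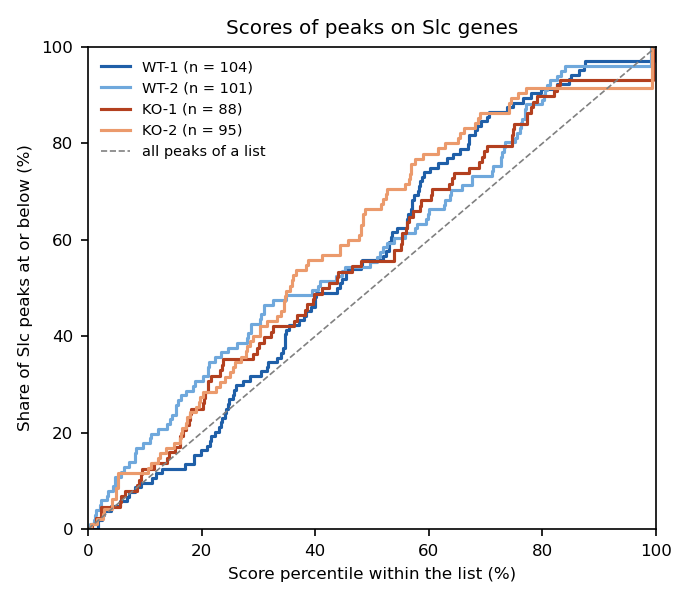
Cumulative share of Slc peaks (y axis, percent) by the percentile of their score within the list (x axis), 1 line per list, with a dashed diagonal for all peaks of a list. The 4 lines run above the diagonal at the middle, with medians between 35.6 and 44.1.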

How the data were processed

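MeRIP-Seq peak lists of BMDMs from 2 WT and 2 KO mice were used, 1 list per mouse from an IP and an input library. The authors called the peaks and deposited for each a position and a score, in the form MACS writes; the caller and its settings are not given in the sources used here. Per the labels, the submitters' processing notes name cutadapt 1.9.3, HISAT2 2.0.4 and the build mm10 (GRCm38). Starts were counted from 0 in the files and are given here from 1.

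Each peak was assigned to the protein-coding gene of GENCODE M21 with the largest exon overlap on its strand, of at least 1 bp, and placed on the longest coding transcript by its middle. Overlapping peaks were merged into regions. The code was tested on simulated lists, in which the presence pattern over the 4 lists was recovered for 1985 of 2000 genes. Genotypes were compared over 6 labellings of the mice and Slc with other genes over 16 sign patterns. Members and lists were chosen with earlier results of these data known. Genes were named by these rules: up to 20 genes in all 4 lists with the highest mean score percentile, genes in both lists of 1 genotype only, the macrophage list and up to 5 genes with the most peaks in a list. Roles follow the SLC family. Alternatives covered score limits, merging, transcripts, placement, motif windows, replicates and the replicate block. The numbers of the mice are not stated to pair them (correlation of replicate differences over Slc genes 0.055). Some results for single genes are not reported here. Depth is unknown. The tools were scipy 1.17.1, pysam 0.24.0, numpy 2.4.6 and matplotlib 3.10.9 under Python 3.11.15.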

Additional observations from a re-analysis of the deposited data

How the results depend on the processing

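Of the values recomputed under alternatives, 72 kept their direction or, for counts, stayed within 1.5 times, 24 counts moved by more than 1.5 times and 4 reversed. The threshold of 0.05 played no part, because no exact test on these lists could pass it. Of the 72, some moved by more than 1.5 times. The difference between genotypes in CDS share (12.9 points) went to 4.57 with every base placed and 24.6 in the top 50% of scores. The difference in genes (-15.5) went to -8 without KO-1. The 3′-UTR difference between Slc and other genes (13 points) went to 8.12 on genes with a single coding transcript. Their difference in GGAC share (0.183 points) went to 0.122 in the top 50% of scores and 0.298 with equal numbers of top peaks. It was 0.365 without WT-2 and 1.28 without KO-1. All 4 reversals concern the difference in GGAC share between Slc and other genes, which was -0.121 points in the central 200 bases, -0.119 per kb, and between -0.652 (without WT-1) and 1.28 (without KO-1) with 1 mouse left out. With the top 50% of scores, 9 Slc genes had a peak in all 4 lists, 4 genes and 5 regions were in both WT lists only, and 1 gene and 2 regions in both KO lists only. When each list was cut to the same number of its best peaks, 1 gene was in both KO lists only. When 1 list of a genotype sufficed and the other genotype had none, 44 genes were in WT and 26 in KO. Leaving out 1 mouse gave 14 to 28 genes and 13 to 48 regions in WT only, and 4 to 17 genes and 10 to 38 regions in KO only, because fewer lists then had to match. With the replicate number as a block, genes were counted when present in WT and absent from KO within at least 1 numbered pair. Genes with a pair going the other way were left out. The count was 58, and that of the reverse 34. The differences in genes (-15.5), peaks (-11) and CDS share (12.9 points) were unchanged, with P = 0.5 in an exact sign-flip test. With exons of protein-coding transcripts alone, chosen after seeing the data, 3 genes were in both KO lists only and the difference in genes was -14. Leaving out Slc4a1ap, Slc7a6os and Slc9a3r1, also chosen later, was run for the CDS difference between Slc and other genes only, which was then -19.0. The 2 mice per genotype, the missing read counts and the upper range of scores at 3100 limit what the lists can show. A carrier without a peak may be unmethylated, weakly expressed or under the score limit, and the lists do not tell these apart.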

Other observations

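Some carriers have symbols outside the rule, and a list of such genes was read in the same way after the data were seen. Slco3a1, an organic anion carrier, had a peak in each of the 4 lists (1 and 1 in WT, 3 and 3 in KO), as had Xpr1, the phosphate exporter (1 and 3 in WT, 1 and 1 in KO). Sfxn5, of the mitochondrial sideroflexins, had 3 peaks in WT-2 and 1 and 2 in the KO lists. Pqlc2, a lysosomal exporter of basic amino acids, and Nipa2, a magnesium carrier, each had 1 peak in both WT lists and none in the KO lists. Over all genes with a peak, 3.84% had one in both WT lists and neither KO list. No peak was listed for Flvcr1 and Flvcr2 or for Mcoln1, a lysosomal calcium channel.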
